A study of Mus musculus with 6 samples.

Results

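Histone and DNA methylation modifying enzymes add or remove the acetyl and methyl groups that mark chromatin. The members described here are the histone deacetylases (Hdac), sirtuins (Sirt), lysine demethylases (Kdm), Kmt2 lysine methyltransferases, DNA methyltransferases (Dnmt) and Tet dioxygenases, chosen by the first letters of their gene symbols. Kmt2e and Dnmt3l are counted as writers by family, although their products lack catalytic activity. Of 19943 genes with reads in at least 1 library, 49 matched, and Kdm5c, Kdm5d and Kdm6a were left out by the rule, which left 46 members. They comprise 9 writers (the Kmt and Dnmt genes), 36 erasers (the Hdac, Sirt, Kdm and Tet genes) and 1 antisense RNA, Dnmt3aos, which encodes no enzyme.

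RNA came from the medial prefrontal cortex (mPFC), a brain area for planning and social behaviour, of C57BL/6 mice. In the isolated group, 3 libraries came from mice housed singly for 3 weeks from weaning on, and in the control group 3 came from mice whose housing the labels do not describe. Both groups are labelled 6 weeks old, but the series' design text puts them at 7 weeks. No label says that replicates are separate animals, so each p-value reflects the spread among the libraries, which may be technical. The libraries are called isolated 1 to 3 and control 1 to 3.

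Histone acetylation opens chromatin, and deacetylases reverse it, most often as the catalytic part of corepressor complexes. Methyl groups on histone lysines can mark active or silent chromatin, depending on the lysine, and methyl groups on cytosines of CpG pairs are placed by Dnmt enzymes and oxidised by Tet enzymes. In neurons these enzymes are known for roles in activity-dependent transcription, memory and responses to early experience.

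Total expected counts ran from 18390902 to 18606573 in isolated libraries and from 18226448 to 18544306 in control libraries. All 8 neuronal markers were present, among them the cortical excitatory neuron gene Slc17a7 at 1568 to 1909 CPM (read counts scaled to a common library size with TMM factors) in isolated libraries and 1563 to 1984 CPM in control libraries. The libraries differed in markers of striatal projection neurons, cells of the neighbouring striatum. Their 15 markers summed to 646 to 2644 CPM in isolated libraries, highest in isolated 3, and to 458 to 3635 CPM in control libraries, highest in control 2. The 10 oligodendrocyte markers summed to 3625.5 to 6651 CPM in isolated libraries and to 2785 to 4655 CPM in control libraries. All 10 had a higher mean in isolated libraries (median log2 difference 0.45), as had 6 of the 8 neuronal markers. Of 6 interneuron markers, listed apart from these, 2 had a higher and 4 a lower mean. All 15 striatal, 7 astrocyte and 7 vascular markers and 6 of 7 microglia markers had a lower mean (medians -0.41, -0.08, -0.12 and -0.08). None of these markers passed at an adjusted p under 0.05. The part of tissue make-up in member levels was not tested. In bulk tissue, fewer cells of a type and less RNA per cell cannot be told apart.

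Across the 44 members with enough reads to be tested, no enzyme changed between the groups beyond the test's threshold. With edgeR's quasi-likelihood test 0 members passed at an adjusted p under 0.05, where the background over all 15169 tested genes was 0.0%. At an unadjusted p under 0.05 stood 2 members, Kdm7a and Tet3, both lower in isolated libraries, or 4.55% of members against 3.53% of all tested genes. DESeq2 gave 0 members at an adjusted p under 0.05 (0.00659% of all tested genes) and the same 2 at an unadjusted p under 0.05 (2.02% of all). With limma on log2(FPKM + 1) there were 0 members at an adjusted and 1, Kdm7a, at an unadjusted p under 0.05 (3.82% of all). The CPM ranges of the groups did not overlap for 4 members, or 9.09%, against 8.85% of all tested genes. Dnmt1 and Sirt6 had every isolated library above every control library, as did 4.12% of all tested genes, and Kdm2a and Sirt5 had every isolated library below, as did 4.73%. These shares lie near the background, so they do not set the members apart from other genes.

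The differences were small. Of the 44 tested members 18 had a higher mean and 26 a lower mean in isolated libraries, so that 40.9% were higher; of all tested genes 49.2% were higher and 50.8% lower. The median log2 difference was -0.02, against -0.0018 over all tested genes, and the median size of a difference regardless of sign was 0.07 in both sets. It was 0.05 in 5070 tested genes of like level, those between the lower and upper quartile of member CPM. Members outside these quartiles, scarce ones among them, have no counterpart in that set. A difference under 0.1 in size was seen in 65.9% of members, 62.1% of all tested genes and 76.0% of the genes of like level. For 38 of 44 members the whole 95% interval lay between -0.5 and 0.5 on the log2 scale. The exceptions were Kdm7a and Tet3, the variable genes Kdm6b and Tet1, and the scarce genes Dnmt3b and Kdm4d.

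**Figure D1:**
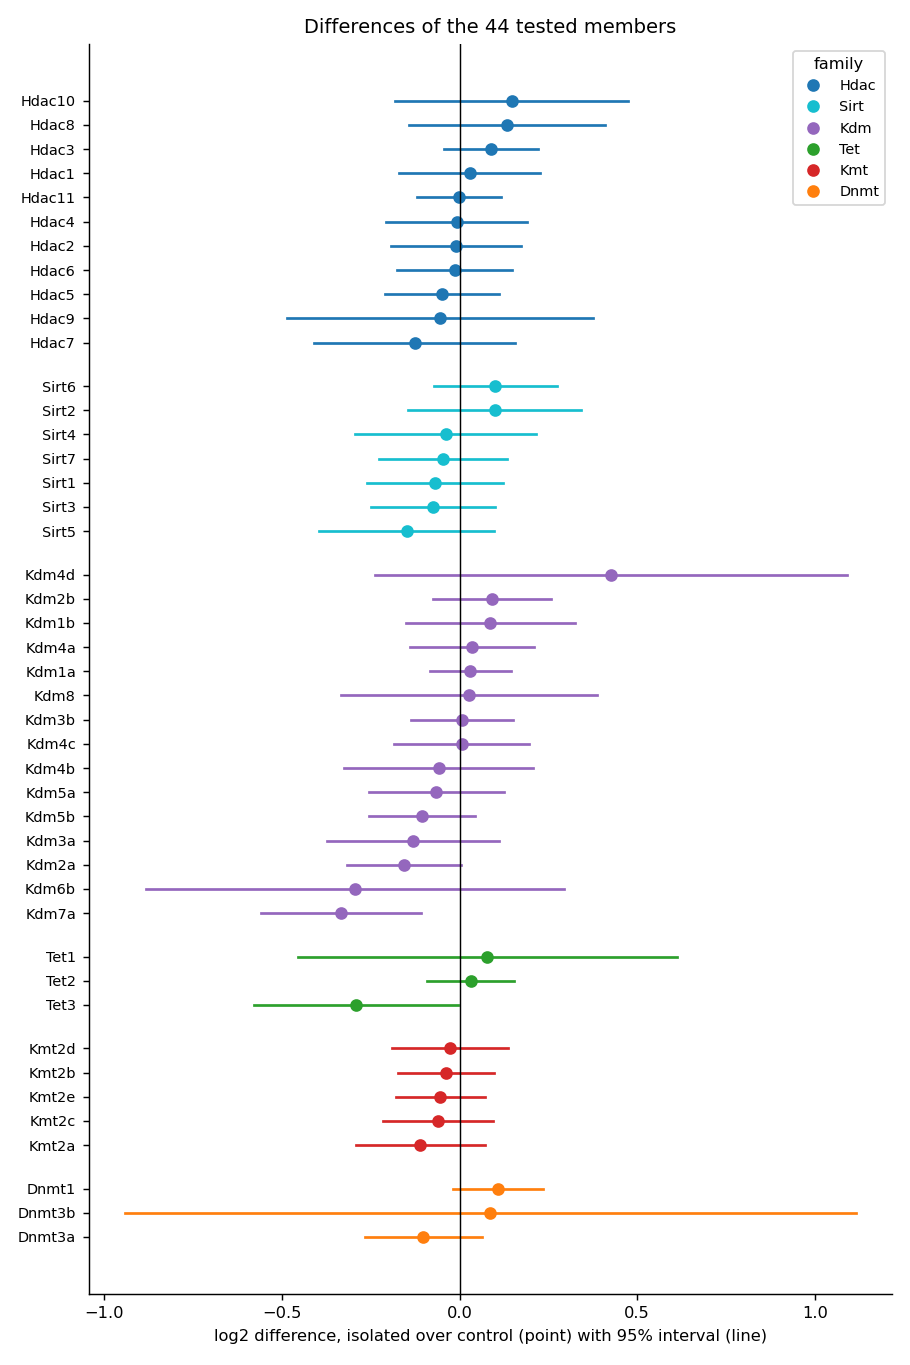
Log2 difference of isolated over control libraries for the 44 tested members, by family, from edgeR (point) with its 95% interval (horizontal line). The intervals of Kdm7a and Tet3 lie below 0 without adjustment, and those of the other 42 include 0.

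The lysine demethylase gene Kdm7a had the smallest p of the members. Its product is a Jumonji enzyme that removes methyl groups from repressive marks on histone H3. Kdm7a stood at 63.8, 64.2 and 74.9 CPM in isolated 1 to 3, against 89.8, 91.1 and 74.8 CPM in control 1 to 3. Isolated 1 and 2 lay below every control library, whereas isolated 3 and control 3 were nearly equal, so the groups just overlapped. Means were 67.6 ± 6.3 CPM in isolated libraries and 85.2 ± 9.08 CPM in control libraries (SD, n = 3 each). The log2 difference was -0.33 (SE 0.10, 95% interval -0.56 to -0.11), with an unadjusted p of 0.0095 and an adjusted p of 0.999 by edgeR's quasi-likelihood test. On the FPKM scale, in which counts are divided by gene length, the level was 7.02 ± 0.721 in isolated and 8.83 ± 1 in control libraries. The log2 difference lay between -0.42 and -0.28 in all 17 other settings, and its unadjusted p between 0.00026 and 0.039 in edgeR, DESeq2 and limma fits. The lowest p came from the edgeR fit with the striatal marker level as a covariate, added after the data were seen. The next lowest, 0.0020, came from edgeR without control 3. Kdm7a lies on chromosome 6 from 39136620 to 39206773 (GRCm38.p6), and an opposite-strand gene covers 3.0% of its exon bases, whose reads may not be separable.

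The methylcytosine dioxygenase gene Tet3 was the other member at an unadjusted p under 0.05. Tet3 stood at 73.1, 69 and 72.2 CPM in isolated 1 to 3, against 103, 87.8 and 71 CPM in control 1 to 3. The isolated libraries lay close together, and control 3 fell among them while control 1 and control 2 lay above. Means were 71.4 ± 2.18 CPM in isolated libraries and 87.4 ± 16.1 CPM in control libraries (SD, n = 3 each). The log2 difference was -0.29 (SE 0.12, 95% interval -0.58 to -0.0044), with an unadjusted p of 0.047 and an adjusted p of 0.999 by edgeR's quasi-likelihood test. Control 1 and control 3 pulled the value apart: the difference became -0.15 without control 1 (edgeR unadjusted p = 0.16) and -0.42 without control 3 (edgeR unadjusted p = 0.0016). Leaving out control 2 gave -0.29, and leaving out isolated 1, 2 or 3 gave -0.31, -0.27 and -0.30, and the unadjusted p was above 0.05 in these 4 fits. Tet3 lies on chromosome 6 from 83362373 to 83457208.

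The 250 bases before the start that RefSeq lists are shown for these 2 genes, because they had the smallest p-values and because CpG pairs, in capitals, are the letters that Dnmt enzymes methylate and Tet enzymes oxidise. Both windows are on the minus strand of GRCm38.p6, at chr6:39206774-39207023 for Kdm7a and chr6:83441679-83441928 for Tet3, which lies within the span of the gene, at an internal start.
Kdm7a: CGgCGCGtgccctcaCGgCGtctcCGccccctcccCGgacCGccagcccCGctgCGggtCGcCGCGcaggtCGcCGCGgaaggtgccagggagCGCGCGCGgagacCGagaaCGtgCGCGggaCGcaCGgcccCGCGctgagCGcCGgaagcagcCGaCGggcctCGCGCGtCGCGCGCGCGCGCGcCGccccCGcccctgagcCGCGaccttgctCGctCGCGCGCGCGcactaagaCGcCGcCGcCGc
Tet3: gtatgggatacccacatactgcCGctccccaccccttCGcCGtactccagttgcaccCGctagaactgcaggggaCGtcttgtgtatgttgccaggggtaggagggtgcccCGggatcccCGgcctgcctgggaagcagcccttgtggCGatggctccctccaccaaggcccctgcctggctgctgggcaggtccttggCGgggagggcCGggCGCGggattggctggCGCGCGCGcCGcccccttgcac
The Kdm7a window held 56 CpG pairs and that of Tet3 held 17. The median was 16 over the first-listed windows of the 36 members with an entry and 15 over those of 11974 tested genes, of which 1, Kdm7a itself, reached 56. The letters TGACGTCA, the same on both strands and known as the site of CREB, an activity-dependent factor, were in 0 of these 36 member windows and in 2.69% of all windows. The shorter TGACG, which lies within TGACGTCA, was in 8 of the 36 on either strand (22.2%), against 25.9% of all windows. Methylation was not measured in these libraries.

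**Figure D2:**
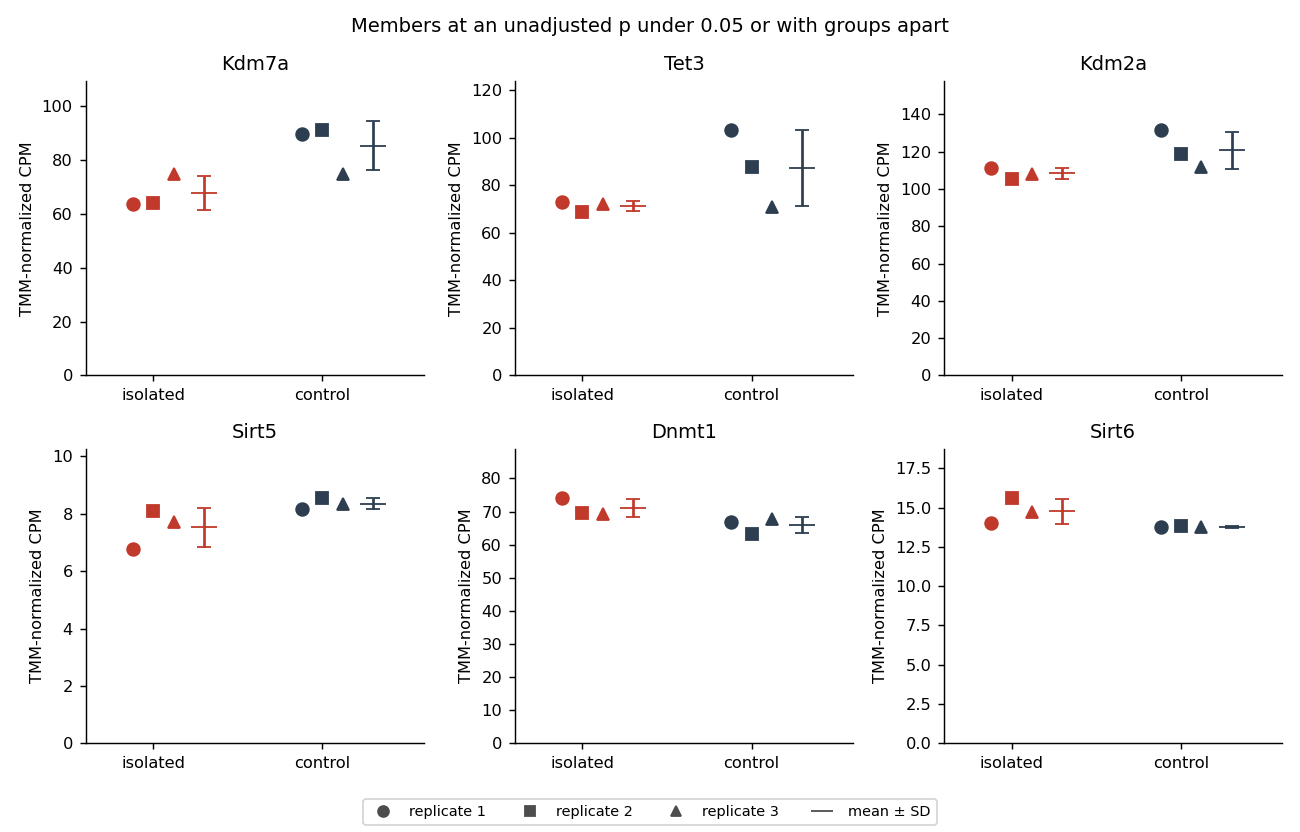
TMM-normalized CPM of Kdm7a, Tet3, Kdm2a, Sirt5, Dnmt1 and Sirt6 in each library, with the mean ± SD of each group (n = 3). Replicate 3 of the controls lies at the level of replicate 3 of the isolated libraries in Kdm7a, and among the isolated libraries in Tet3. In the other 4 genes the groups do not overlap.

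Among the remaining lysine demethylases, Kdm2a, whose product acts on histone H3 at CpG-rich promoters, had groups that did not overlap. It stood at 111.4, 105.6 and 107.9 CPM in isolated 1 to 3, against 131.6, 118.8 and 111.6 CPM in control 1 to 3. Isolated 1 and control 3 were nearly equal, and the spread was wider among controls. The log2 difference was -0.16 (SE 0.07), with an unadjusted p of 0.055 and an adjusted p of 0.999 by edgeR's quasi-likelihood test, and it was -0.09 without control 1 (edgeR unadjusted p = 0.16). The gene spans 4316144 to 4398721 on chromosome 19.

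Kdm1a, which encodes the flavin-dependent demethylase LSD1 of the CoREST complex, was the most abundant Kdm gene. Its FPKM was 19.4 ± 0.219 in isolated and 19 ± 0.327 in control libraries (SD, n = 3 each), and its highest and lowest library differed 1.06-fold in CPM. Kdm4b, a Jumonji demethylase, followed at 16.7 ± 2.32 FPKM in isolated and 17.4 ± 2.16 FPKM in control libraries, a difference within the spread. The log2 differences in counts were 0.03 for Kdm1a and -0.06 for Kdm4b, with adjusted p = 0.999 for both by edgeR. Of the 15 Kdm genes 8 had a higher and 7 a lower mean in isolated libraries, and their FPKM averaged over all libraries ran down to 0.513 for Kdm4d.

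Kdm6b, which removes the Polycomb mark and is induced by signals in several cell types, was singled out after its values were seen because it varied most among the Kdm genes above 5 CPM. It stood at 30.1, 28.8 and 36.9 CPM in isolated 1 to 3, against 48.2, 45.7 and 23.4 CPM in control 1 to 3. The controls held both the highest and the lowest of the 6 values, 2.06-fold apart. The log2 difference of -0.29 had a 95% interval from -0.88 to 0.29. An antisense gene, Kdm6bos, covers 4.3% of its exon bases.

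The histone deacetylases had nearly the same summed level in all libraries. Their FPKM added up to 252, 249.1 and 247 in isolated 1 to 3, against 246.8, 249.9 and 250.1 in control 1 to 3. Hdac11, the class IV member, led at 76 ± 1.59 FPKM in isolated and 76 ± 1.48 FPKM in control libraries (SD, n = 3 each). Its reads stood at 193, 192 and 183 CPM in isolated 1 to 3, against 186, 189 and 194 CPM in control 1 to 3, a log2 difference of -0.0027 with a 95% interval from -0.12 to 0.12. An opposite-strand gene covers 22.4% of its exon bases, so part of these reads may not be its own. Hdac5, a class IIa enzyme that shuttles between nucleus and cytoplasm with neuronal activity, had 41.3 ± 2.05 FPKM in isolated and 42.7 ± 3.56 FPKM in control libraries. Hdac3, the catalytic subunit of the NCoR corepressor complex, had 36.8 ± 1.05 FPKM in isolated and 34.6 ± 1.35 FPKM in control libraries, with a log2 difference of 0.09 (edgeR unadjusted p = 0.16). Hdac2, known as a brake on memory genes in mice, had 34 ± 0.881 FPKM in isolated and 34.2 ± 3.81 FPKM in control libraries. In control libraries the levels of Hdac3 and Hdac2 did not differ beyond their spread.

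None of the 11 Hdac genes had groups apart, and their log2 differences ran from -0.13 for Hdac7 to 0.15 for Hdac10. Of the class I genes Hdac1, Hdac2, Hdac3 and Hdac8, 3 had a higher and 1 a lower mean in isolated libraries. All 4 class IIa genes, Hdac4, Hdac5, Hdac7 and Hdac9, had a lower mean, with a median log2 difference of -0.05 and no member at an unadjusted p under 0.05. Hdac9, singled out after its values were seen, stood at 58.7, 54.2 and 41 CPM in isolated 1 to 3, against 40.5, 55.6 and 63.8 CPM in control 1 to 3, so that both groups held low and high libraries.

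Sirtuins remove acyl groups with the cofactor NAD and act in different compartments. Sirt2, a mostly cytoplasmic deacetylase abundant in myelinating cells, led at 73.4 ± 8.1 FPKM in isolated and 68.6 ± 7.7 FPKM in control libraries (SD, n = 3 each). It stood at 122, 125 and 148 CPM in isolated 1 to 3, against 138, 122 and 109 CPM in control 1 to 3, a log2 difference of 0.10 with adjusted p = 0.999 by edgeR. Isolated 3 was highest and control 3 lowest, as for the summed oligodendrocyte markers, whose part in the result was not tested. Leaving out isolated 3 brought the Sirt2 difference to 0.0072, and leaving out control 3 to 0.02. It was 0.19 when control 1 was left out.

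Sirt6, a nuclear deacetylase that acts in DNA repair and metabolism, was higher in every isolated library. It stood at 14, 15.6 and 14.7 CPM in isolated 1 to 3, against 13.7, 13.8 and 13.7 CPM in control 1 to 3. The controls were nearly equal (SD 0.0552 CPM), and isolated 1 lay just above them. The log2 difference was 0.10 (SE 0.07), with an unadjusted p of 0.21 and an adjusted p of 0.999 by edgeR's quasi-likelihood test, and it was 0.06 without isolated 2. The gene lies on chromosome 10 from 81621787 to 81627792.

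Sirt5, a mitochondrial enzyme that removes succinyl and related groups, was lower in every isolated library. It stood at 6.78, 8.1 and 7.72 CPM in isolated 1 to 3, against 8.16, 8.55 and 8.36 CPM in control 1 to 3. Isolated 2 lay just under the lowest control, and most of the distance came from isolated 1. The log2 difference was -0.15 (SE 0.11, edgeR unadjusted p = 0.20, adjusted p = 0.999), and it was -0.08 without isolated 1. The gene lies on chromosome 13 from 43365389 to 43395203. Sirt3, the main mitochondrial deacetylase, had 26.6 ± 1.56 FPKM in isolated and 28 ± 1.52 FPKM in control libraries. The nucleolar sirtuin gene Sirt7 had 17.6 ± 1.27 FPKM in isolated and 18.2 ± 1.21 FPKM in control libraries. Exons of an opposite-strand gene cover 8.82% of Sirt3. Of the 7 Sirt genes 2 had a higher and 5 a lower mean in isolated libraries. Over all 46 members, 5 averaged under 1 FPKM, 20 lay from 1 to 10 and 21 at 10 or more.

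**Figure D3:**
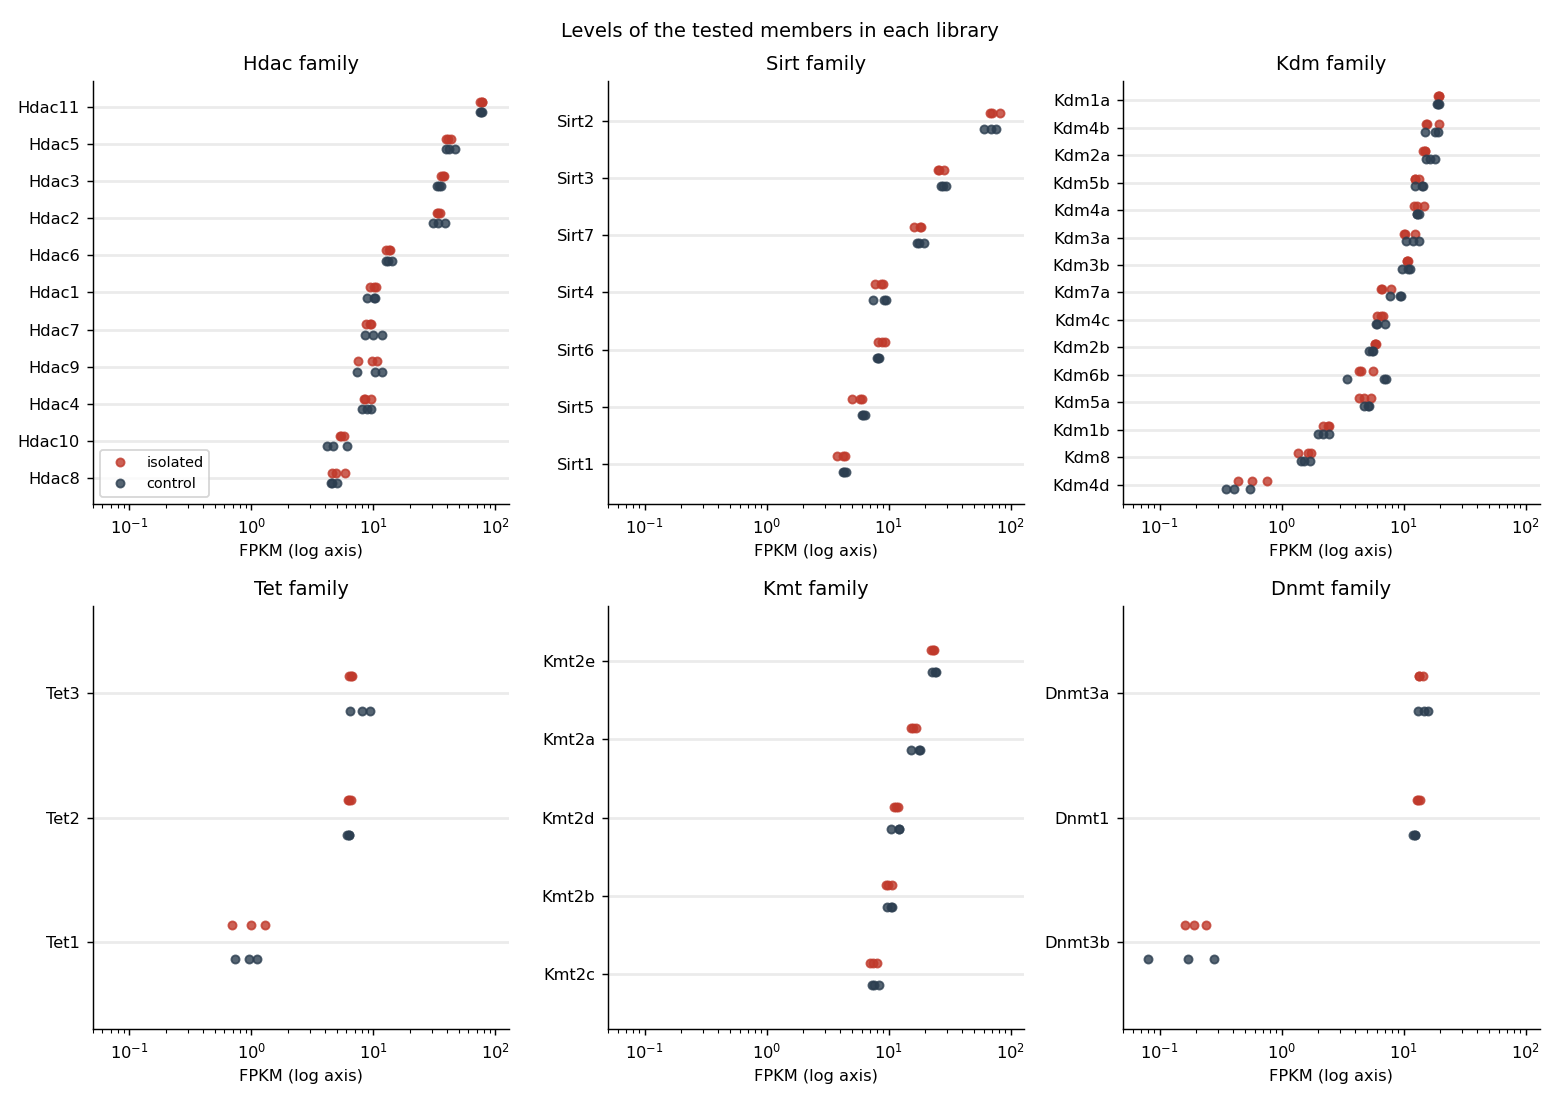
FPKM of the 44 tested members in each library, by family, on a log axis (1 point per library, isolated libraries above control libraries in each line). The spread between members, from Dnmt3b at 0.187 to Hdac11 at 76 FPKM on average, is far wider than the distance between the groups.

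The DNA methyltransferases separated by level. Dnmt3a, the main enzyme that sets new methylation in neurons, had 13.7 ± 0.566 FPKM in isolated and 14.6 ± 1.36 FPKM in control libraries (SD, n = 3 each). Dnmt1, which copies methylation after replication, had 13.2 ± 0.402 FPKM in isolated and 12.2 ± 0.326 FPKM in control libraries. Dnmt3b, the second de novo enzyme, had 0.197 ± 0.0404 FPKM in isolated and 0.177 ± 0.1 FPKM in control libraries. Dnmt3l, a partner without catalytic activity, held 1 to 4 expected counts per library and was not tested, and neither was Dnmt3aos, with 0 to 4.

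Dnmt1 was higher in every isolated library, at 74.1, 69.6 and 69.3 CPM in isolated 1 to 3 against 66.8, 63.2 and 67.7 CPM in control 1 to 3. The lowest isolated library lay above the highest control by less than the spread within a group. The log2 difference was 0.11 (SE 0.05, 95% interval -0.019 to 0.24), with an unadjusted p of 0.086 and an adjusted p of 0.999 by edgeR's quasi-likelihood test. Dnmt3a had the opposite sign, at 130.5, 128 and 136 CPM in isolated 1 to 3 against 144, 152 and 128 CPM in control 1 to 3, with overlapping groups and a log2 difference of -0.10 (edgeR unadjusted p = 0.19). That difference was -0.05 without control 2 and -0.17 without control 3 (edgeR unadjusted p = 0.53 and 0.030). Dnmt1 lies on chromosome 9 from 20907206 to 20959888, and Dnmt3a on chromosome 12 from 3801559 to 3914443.

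Of the Tet genes, Tet3 was followed by Tet2, at 6.37 ± 0.23 FPKM in isolated and 6.22 ± 0.138 FPKM in control libraries (SD, n = 3 each). Tet2 was among the steadiest members, with a log2 difference of 0.03 and 1.07-fold between its highest and lowest library in CPM. Tet1 was scarce, at 0.987 ± 0.295 FPKM in isolated and 0.933 ± 0.196 FPKM in control libraries. It stood at 9.88, 14.1 and 17.9 CPM in isolated 1 to 3, against 13.6, 15.7 and 10.4 CPM in control 1 to 3, and was highest in isolated 3 and control 2, the libraries with the most striatal marker reads of their group. The log2 difference of Tet1 was 0.08 (edgeR unadjusted p = 0.74). It was 0.10 with the striatal marker level as a covariate (edgeR unadjusted p = 0.46) and -0.00054 without control 2 and isolated 3, both fits added after the data were seen.

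The 5 Kmt2 genes encode large proteins, the methyltransferases of COMPASS complexes that mark promoters and enhancers, with Kmt2e as a relative that reads rather than writes the mark. Kmt2e led at 22.9 ± 0.571 FPKM in isolated and 23.8 ± 1.09 FPKM in control libraries (SD, n = 3 each). Kmt2a followed at 15.9 ± 0.768 FPKM in isolated and 17.1 ± 1.53 FPKM in control libraries. Kmt2d had 11.5 ± 0.47 FPKM in isolated and 11.7 ± 1.01 FPKM in control libraries. All 5 had a lower mean in isolated libraries, by log2 differences from -0.11 for Kmt2a to -0.03 for Kmt2d, and none had groups apart or an unadjusted p under 0.05. Kmt2a stood at 280, 262.4 and 249.03 CPM in isolated 1 to 3, against 302, 294 and 258 CPM in control 1 to 3. Control 1 and control 2 lay above every isolated library, and control 3 lay among them. The Kmt2a difference was -0.07 without control 1 and also without isolated 3, and -0.18 without control 3 (edgeR unadjusted p = 0.46, 0.43 and 0.043). Kmt2d turned to 0.01 without control 1 and to 0.0024 without control 2, and exons of Srpk2 on the opposite strand cover 13.3% of Kmt2e.

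Writers were set against erasers within each library, as a ratio of summed FPKM. The writers hold no acetyltransferase, whereas Hdac and Sirt genes averaged 249 and 145 of the 540 FPKM of erasers in isolated libraries. Kmt2e, which does not write, is counted among the writers, and sirtuins that act outside the nucleus among the erasers. The ratio thus compares sums by family and is no balance of a mark. The ratio was 0.180, 0.175 and 0.173 in isolated 1 to 3, against 0.181, 0.182 and 0.175 in control 1 to 3. The groups overlapped, with means of 0.176 ± 0.00354 in isolated and 0.18 ± 0.00373 in control libraries (SD, n = 3 each). Over the members of each side, the median log2 difference was -0.05 for the 8 tested writers and -0.0083 for the 36 erasers, against -0.0018 for all tested genes. Of the writers 2 had a higher and 6 a lower mean in isolated libraries, and of the erasers 16 had a higher and 20 a lower mean.

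Enzymes that act on the same mark were paired in the same way. Kmt2a to Kmt2d were set over members that demethylate their mark, Kdm1a, Kdm1b, Kdm5a and Kdm5b. Kdm5c and Kdm5d, left out by the rule, are missing from that sum, so the level of the ratio does not cover all such enzymes. The ratios were 1.15, 1.15 and 1.13 in isolated 1 to 3, against 1.22, 1.18 and 1.12 in control 1 to 3. The isolated libraries lay between the control values. The Dnmt over Tet ratio was 2.01, 1.99 and 1.9 in isolated 1 to 3, against 1.67, 1.81 and 1.93 in control 1 to 3. Isolated 1 and 2 lay above every control, and isolated 3 fell below control 3. Means were 1.96 ± 0.0547 in isolated and 1.8 ± 0.129 in control libraries. The summed Dnmt level was 27.2 ± 0.517 FPKM in isolated and 27 ± 1.02 FPKM in control libraries. The summed Tet level, which includes Tet3, was 13.8 ± 0.586 FPKM in isolated and 15.1 ± 1.5 FPKM in control libraries.

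**Figure D4:**
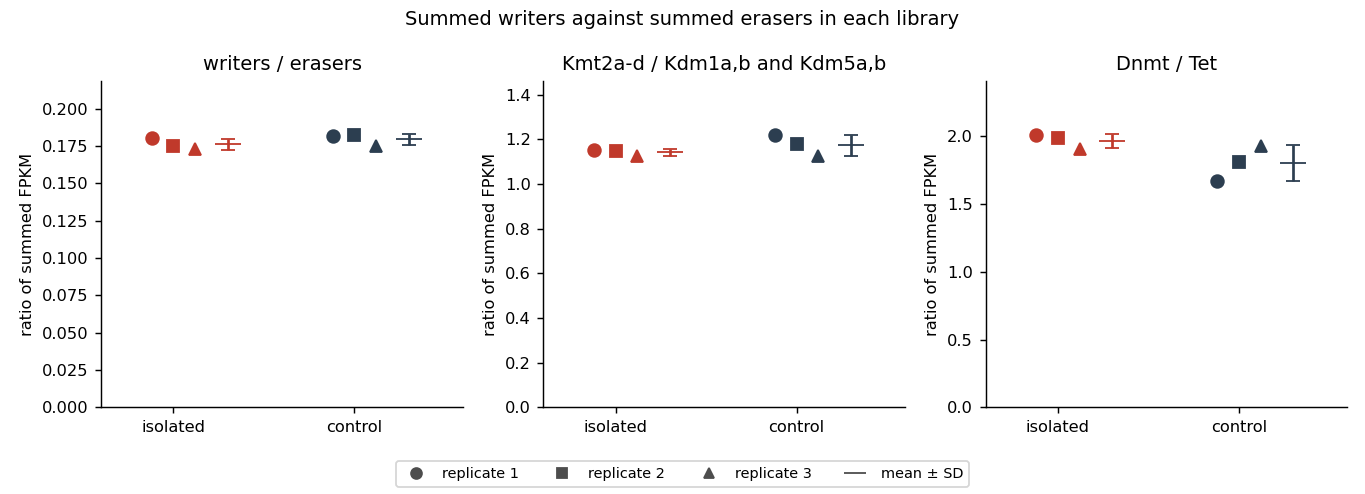
Ratio of summed FPKM in each library for writers over erasers, Kmt2a to Kmt2d over Kdm1a, Kdm1b, Kdm5a and Kdm5b, and Dnmt over Tet, with the mean ± SD of each group (n = 3). The groups overlap in all 3 panels, and the Dnmt over Tet ratio is lowest in control 1 at 1.67.

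The members varied between libraries about as much as other genes of like level. Their median coefficient of variation in CPM over the 6 libraries was 6.9%, against 8.71% for all tested genes and 6.33% for the 5070 tested genes in the middle range of member levels. The members, unlike those 5070 genes, include scarcer and more abundant ones. The highest library exceeded the lowest by more than 1.5-fold for 5 tested members, Dnmt3b, Hdac9, Kdm4d, Kdm6b and Tet1. The SD was smaller among isolated than among control libraries for 28 of 44 members, or 63.6%, against 60.1% of all tested genes, and for all 5 Kmt2 genes.

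Several members moved together between the control libraries. Control 1 held the highest value of 14 members, or 31.8%, against 17.3% of all tested genes, and control 3 the lowest value of 10, or 22.7%, against 16.4%. Among others, chosen after their values were seen, Kdm6b, Kdm7a, Tet3, Kmt2a, Kmt2d, Kdm4b and Kdm3a had control 1 and control 2 above control 3. Other members, such as Hdac3, Hdac6, Hdac9 and Hdac11, went the other way, with control 3 highest of the controls. The share of all tested genes with either order was not counted. The summed striatal markers (1215, 3635 and 458 CPM in control 1 to 3) and oligodendrocyte markers (4655, 3316 and 2785 CPM) were lowest in control 3. The summed neuronal markers (9384, 8355 and 10160 CPM) and astrocyte markers (3872, 4022 and 4141 CPM) were highest there. The separate interneuron markers (795, 892 and 724 CPM) were lowest in control 3. Whether tissue make-up had a part was not tested. The median deviation of the Kmt2 genes from their mean over the libraries was -0.06, -0.04 and 0.03 in isolated 1 to 3, against 0.09, 0.06 and -0.05 in control 1 to 3, on the log2 scale. Without control 3, 7 members had an edgeR unadjusted p under 0.05, all of them lower in isolated libraries (Dnmt3a, Kdm2a, Kdm5b, Kdm6b, Kdm7a, Kmt2a and Tet3), or 15.9% against 5.61% of all genes tested, and 0 passed at an adjusted p under 0.05. Without control 1 there were 2, Hdac10 and Kdm7a, against 4.83% of all genes tested. Without control 2 there was 1, Kdm7a, against 2.67%, and without isolated 1, 2 or 3 there was again Kdm7a, against 3.07%, 2.4% and 3.45% of all genes tested. The share of all genes thus moved with the library left out.

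**Figure D5:**
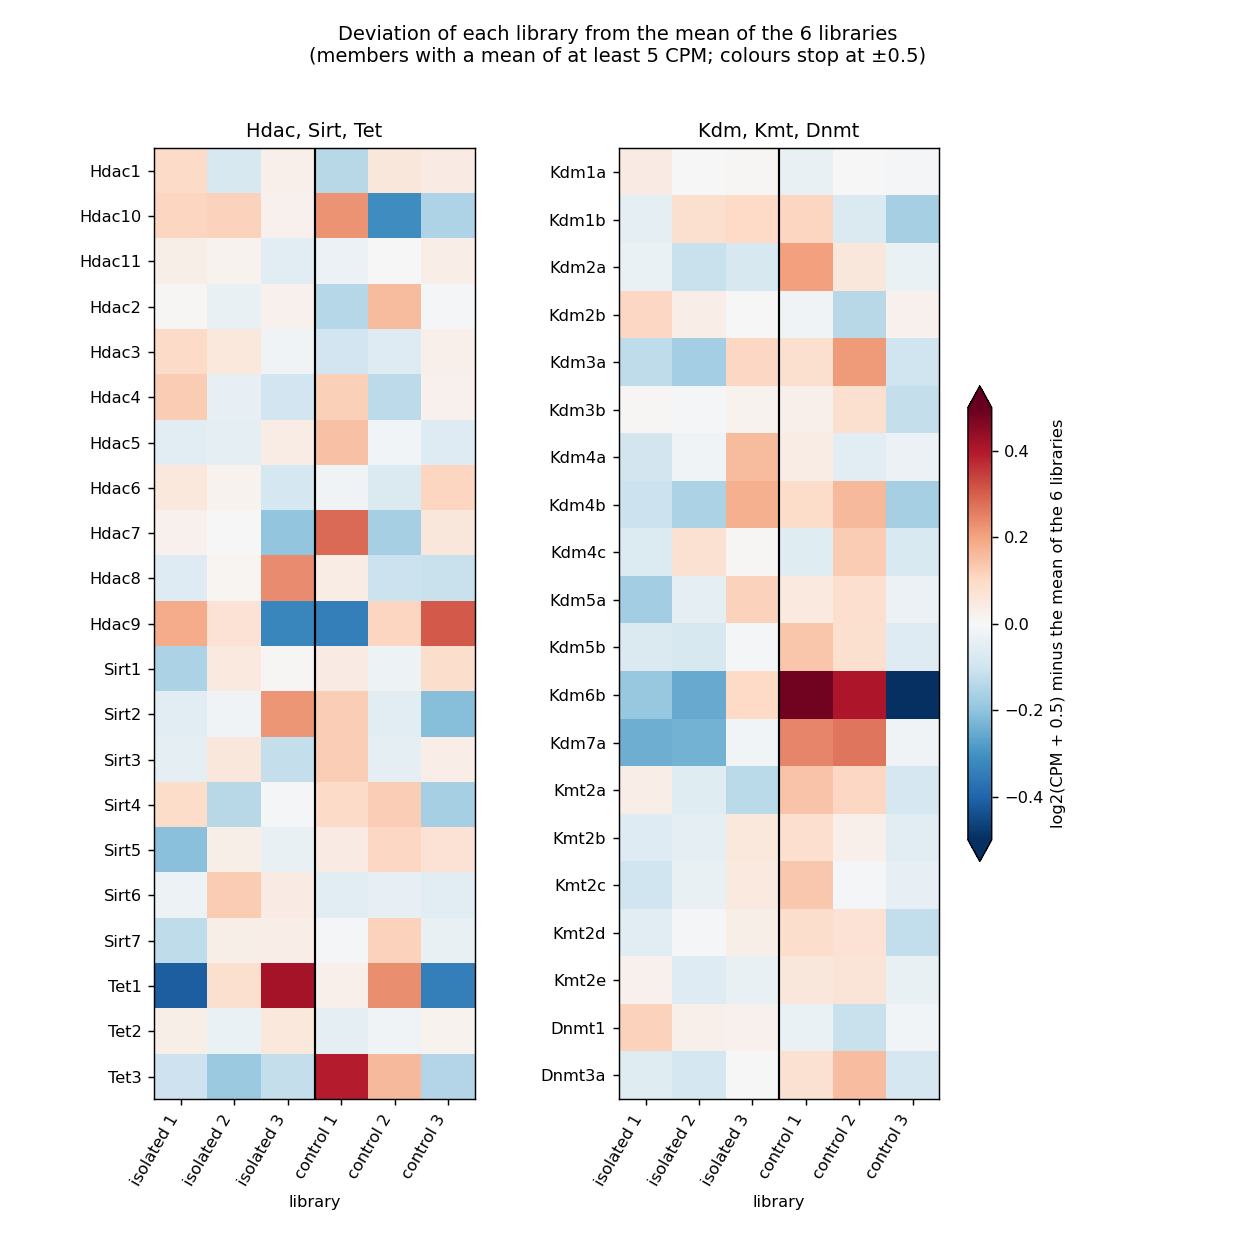
Deviation of each library from the mean of the 6 libraries, as log2(CPM + 0.5), for the 41 members with a mean of at least 5 CPM (rows) in isolated and control libraries (columns, divided by a line). Colours stop at 0.5 in either direction, and the single strongest deviations are those of Kdm6b, followed by Tet1, Tet3 and Hdac9.

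Related enzymes and partners were read from 7 lists outside the members, and none of the listed genes passed the threshold. Of 10 acetyltransferases 4 had a higher and 6 a lower mean in isolated libraries, with 0 at an unadjusted p under 0.05. Of 25 other lysine methyltransferases 8 were higher and 17 lower, and 1 of them, or 4%, against 3.53% of all tested genes, had an unadjusted p under 0.05. This was the putative H3 methyltransferase gene Setdb2, with an edgeR unadjusted p of 0.048 (4.28 ± 0.282 CPM in isolated and 3.47 ± 0.103 CPM in control libraries). Of 20 deacetylase corepressor genes 8 were higher and 12 lower, and 2, or 10%, had an unadjusted p under 0.05. These were Rcor2, a CoREST subunit, at 14.8 ± 1.22 CPM in isolated and 17.4 ± 1.16 CPM in control libraries, and Sap30, a Sin3 subunit, at 2.82 ± 0.198 CPM in isolated and 3.69 ± 0.441 CPM in control libraries. Of 9 arginine methyltransferases 6 were higher and 3 lower, of 6 other demethylases 3 and 3, of 13 Polycomb and COMPASS partners 4 and 9, and of 17 readers and removers of methylated DNA 8 and 9, with 0 at an unadjusted p under 0.05 in these 4 lists. The median log2 differences of the 7 lists lay between -0.04 and 0.06.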

How the data were processed

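Reads of total RNA, 50 bases long on a BGISEQ-500, were processed with HISAT, Bowtie2 and RSEM on mm10, per the submitters' processing notes, which give no versions. The authors deposited an expected count (an estimate, not normalized) and an FPKM value (scaled for length and library size) per gene and library, per the file headers. The strand setting, not given in the sources used here, decides whether reads of overlapping opposite genes were told apart. A further FPKM table was not used because its 6 columns carry codes that no label gives. The entry without a symbol held at most 0.000947% of the counts and was left out. A gene that a library does not list counted as 0. Symbols are the files' own, and 19899 of 19943 identifiers matched RefSeq (GRCm38.p6), the source of coordinates and promoter sequences. Exon overlaps came from GENCODE M21 on the same build.

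After rounding, expected counts went into edgeR 4.0.16 (R 4.3.3): filterByExpr (minimum count 10, minimum total 15) left 15169 genes, with TMM factors, the quasi-likelihood F-test without covariates, and Benjamini-Hochberg adjustment over all tested genes at 0.05. Standard errors derive from the fold change and F, and 95% intervals from the t distribution. Alternatives used DESeq2 1.42.0, limma 3.58.1 on voom values and on log2(FPKM + 1) or log2(FPKM + 0.1), other scalings, no filter, a replicate term and each library left out. The edgeR test was also run on simulated data, and the outcome of that run is not given here. Every pair of libraries differed beyond counting noise (chi-square of 2.89 to 20.4 per gene). Members, gene lists and tests were chosen with earlier results of these data known. Members given in full are the 3 with the highest mean FPKM in each family. Added to these are members with an edgeR unadjusted p under 0.05 or with groups apart. Related enzymes and partners named by test are those with an edgeR unadjusted p under 0.05, at most 3 a list. Precision is limited by 3 libraries per group, and scarce genes have wide intervals.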

Additional observations from a re-analysis of the deposited data

How the results depend on the processing

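In 17 other settings the 21 members given in full kept their direction in 340 of 357 recomputed values, and 0 members passed at an adjusted p under 0.05 in any of them. Many of these settings refit the same 6 libraries, so a kept direction says little there. Of the 17 reversed values, 13 came from leaving out 1 library. DESeq2 called 1 of all genes, which is no member, and edgeR called 0. The count of members at an unadjusted p under 0.05, 2 with all libraries, was 1 with limma-voom, with limma on either FPKM scale or without a filter, without TMM factors, with the replicate number as a block, and without control 2 and isolated 3. It was 4 with the striatal marker level as a covariate, and 1 to 7 with single libraries left out. The share of all tested genes at that threshold moved as well, to 6.14% with the covariate, 2.18% with the replicate block and 2.4% to 5.61% with single libraries left out, against 3.53% with all libraries and neither term. The settings on striatal markers were added after the data were seen. Leaving out single libraries, the median log2 difference ran from -0.09 to -0.0055 for writers and from -0.024 to 0.0076 for erasers.

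Values near 0 changed sign. Hdac11 was 0.0068 with upper-quartile factors. Without control 2 and isolated 3, Dnmt3b was -0.43, Hdac11 0.021 and Tet1 -0.00054. Leaving out single libraries, Dnmt3b ran from -0.27 to 0.60, Hdac11 from -0.018 to 0.021, Hdac5 from -0.093 to 0.015, Kdm4b from -0.17 to 0.011, Kmt2d from -0.092 to 0.010, Sirt7 from -0.076 to 0.0060 and Tet1 from -0.14 to 0.28. The cause was not tested.

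No pairing by replicate number was seen: deviations of same-numbered libraries correlated across genes at 0.0254, -0.269 and -0.492. None of the libraries correlated best with its own number. The highest correlation, 0.438, was that of isolated 3 with control 2, the libraries with the most striatal marker reads of their group. Such correlations cannot show whether animals were paired. With the replicate block 331 of all genes had an unadjusted p under 0.05, against 535 without it.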
